A study of Mus musculus with 6 samples.

Results

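The genes for the proteins of the cytoplasmic ribosome were followed in the spleen of female NOD mice, which become diabetic on their own through autoimmune loss of islets. A probe set entered when the platform annotation gave it 1 gene and that gene's symbol was Rpl or Rps with a number and at most 1 further letter, or Rplp0, Rplp1, Rplp2 or Rpsa. Pseudogenes with a -ps symbol and the Rps6k kinases were left out, and each gene was represented by its brightest probe set over the 6 arrays. The rule found 46 genes among the 18193 that had a probe set of their own, 24 of the large subunit and its stalk and 22 of the small subunit.

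Of the 77 genes in a list of the usual cytoplasmic ribosomal proteins, 42 were members. Another 27, among them Rpl3, Rpl5, Rpl10, Rpl35a and Rplp1, were named only on probe sets that also name other genes. Rps3a, annotated as Rps3a1, fell outside the rule, and 7 genes were not analysed here. The remaining 4 members were the paralogs Rpl3l, Rpl39l, Rps27l and Rps4l.

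RNA came from 3 groups. Untreated non-diabetic mice had stayed free of disease, untreated diabetic mice had overt hyperglycemia, and the third group had received the histone deacetylase inhibitor trichostatin A (TSA), injected s.c. weekly at 500 µg/kg from 18 to 24 wk of age, and had been cured. The labels gave 32 to 36 wk of age for every group, whereas the study's methods gave diabetic mice a younger range, and treated mice that remained diabetic had been left out. The labels named pools of 3 to 5 mice, and the study's methods gave another range. Each group was 1 RNA pool, labeled and hybridized in duplicate (n = 2 arrays), so every SD and p-value describes repeat hybridizations of a pool and not the spread between mice. Treatment also came with selection for cure and possibly with age, and these cannot be told apart. In whole-organ RNA, fewer cells of a type and less RNA per cell cannot be told apart either.

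A ribosome joins a small subunit, which reads the mRNA, to a large subunit, which forms the peptide bond. Each subunit is built from rRNA and a fixed set of proteins, mostly in single copy, and the large subunit carries a flexible stalk of acidic proteins on which translation factors act. Mammalian ribosomal protein mRNAs are short, abundant and usually begin with a run of pyrimidines, the 5′ TOP motif, through which mTOR and Larp1 control their translation. Myc increases their transcription when lymphocytes are activated and grow.

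Start-site sequence is shown for 8 members to let the reader look for pyrimidine runs near the start of genes on which the results turn. The windows are from RefSeq on build GRCm38.p6, 30 bases each with the annotated start in the middle, and capitals mark a run of at least 6 pyrimidines that lies within 5 bases of the start. Rps10 (chr17:27635230-27635259, minus strand), Rpl7a (chr2:26910792-26910821, plus), Rps9 (chr7:3704026-3704055, plus), Rplp0 (chr5:115559452-115559481, plus) and Rps15 (chr10:80292416-80292445, plus) varied most between the TSA-treated arrays. Rps27l (chr9:66946071-66946100, plus) and Rpl14 (chr9:120571502-120571531, plus) had the largest positive differences in TSA-treated against non-diabetic spleen. Rpl13a (chr7:45128731-45128760, minus) was among the most even on its brightest probe set.
Rps10: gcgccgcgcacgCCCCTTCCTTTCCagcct
Rpl7a: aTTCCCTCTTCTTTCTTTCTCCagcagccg
Rps9: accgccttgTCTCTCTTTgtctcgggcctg
Rplp0: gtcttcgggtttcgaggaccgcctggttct
Rps15: cccggcagagctcgcgataactgcgcaagc
Rps27l: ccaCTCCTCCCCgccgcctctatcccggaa
Rpl14: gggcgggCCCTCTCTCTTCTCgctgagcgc
Rpl13a: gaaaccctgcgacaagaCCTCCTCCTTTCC
Of these 8 windows, 6 hold a run and those of Rplp0 and Rps15 hold none. A marked run need not begin the transcript. That of Rps27l lies wholly before the annotated start, and that of Rpl13a begins after it.

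Promoter windows, from 250 bases before to 50 after the annotated start, were given for 40 members. A pyrimidine run near the start was found in 21 of the 40 (52.5%) and in 20.1% of 27025 genes of the same table. CCGGAAG, the letters of an Ets-type site, was found on either strand in 20 (50%) of the members and in 9.12% of all genes. AAGATGG, the letters of a YY1-type site, was found in 6 (15%) against 6.48%, and TATAAA in 4 (10%) against 14.2%. The last letters of CCGGAAG are the first letters of AAGATGG, so the motifs can overlap. These matches describe letters in a window around an annotated start, which may differ from the start used in spleen.

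The 6 arrays gave log2 levels after robust multi-array averaging (RMA). Exocrine pancreas genes marked the diabetic and TSA-treated RNA: of 4 measured, 3 rose in diabetic and 2 in TSA-treated spleen by limma's test, and the mean level over the list was 5.35 to 5.44 on the non-diabetic, 11.62 to 11.68 on the diabetic and 7.86 to 8.81 on the TSA-treated arrays. B cell genes were present (4 measured, Cd79a and Ms4a1 among them), with a mean level of 10.41 to 10.77 on the 4 untreated arrays, 9.81 on TSA-treated replicate 1 and 8.41 on replicate 2. TSA-treated replicate 2 had the largest excess of 3′ over 5′ control probe sets. For actin this gap was 5.61 there, 3.45 on TSA-treated replicate 1, 3.32 on diabetic replicate 2 and 2.05 to 2.42 on the remaining arrays. For Gapdh it was 4.58, 3.85, 3.19 and 1.82 to 2.67 in that order. The cause of the gap was not tested. The differences of TSA-treated spleen that rest on TSA-treated replicate 2 are given with and without it for the genes and lists on which the results turn. Without it they rest on TSA-treated replicate 1, whose gaps also lay above those of the non-diabetic arrays.

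Most ribosomal protein transcripts had bright probe sets. The median of the 46 mean levels was 12.45, which describes the members only, since each was represented by its brightest probe set. The median over all probe sets was 3.89, and 42 members lay above that overall median, 33 above 10 and 17 above 13. Brightness depends on the probes as well as on the transcript, so the levels order nothing between genes. Rps29, Rps14, Rpsa and Rpl38 had the brightest probe sets. Rps29 read 13.94 and 13.96 in non-diabetic, 13.98 and 13.86 in diabetic and 14.00 and 14.04 in TSA-treated spleen, so that its TSA-treated arrays were the highest by less than 0.05. The 4 dimmest members were Rps16, Rpl3l, Rpl39l and Rps4l, with means at or below the overall median. For Rps16 the dim value belonged to its probe set, since a brighter one shared with other genes had a mean level of 13.99 against 2.70. The same held for Rps27 (13.89 on the shared, 4.07 on its own probe set) and for Rpl39 (14.12 and 4.93).

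Levels were even on 5 of the 6 arrays. Without TSA-treated replicate 2, the range over the arrays had a median of 0.26 log2 units over the members and of 0.45 over all probe sets, and 40 members stayed within 0.5. With that array the medians were 0.49 and 0.62, and 23 members stayed within 0.5. The duplicates of the non-diabetic pool differed with an SD of 0.16 over the members, those of the diabetic pool with 0.22 and those of the TSA-treated pool with 0.61. A difference over 0.5 between duplicates was seen in 1, 3 and 17 members in that order.

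**Figure D1:**
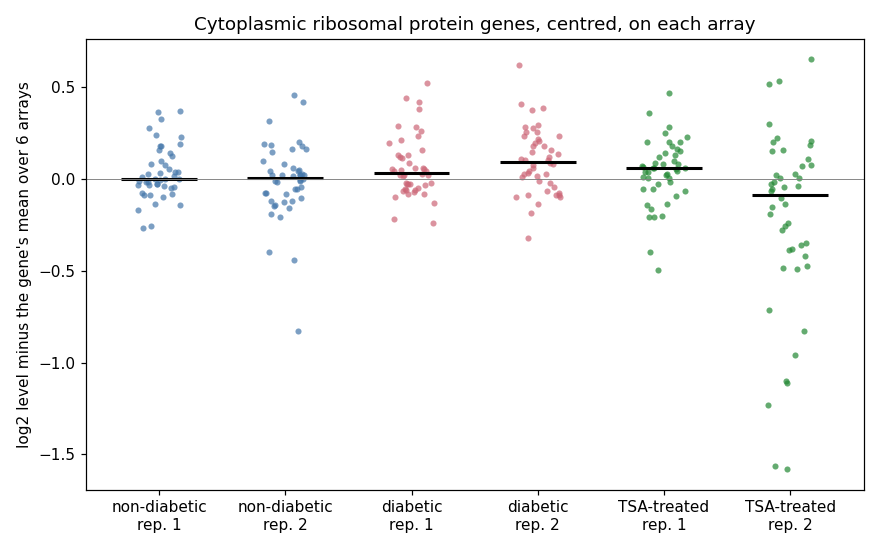
Log2 level of each of the 46 ribosomal protein genes minus that gene's mean over the 6 arrays (y axis), by array (x axis), with 1 point a gene and a bar at the median. The genes stay close to 0 on the other 5 arrays, while TSA-treated replicate 2 has a median of -0.09 and a tail of genes far below it.

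Diabetic spleen was compared with non-diabetic spleen for the effect of disease. None of the 46 members passed limma's test (adjusted p under 0.05 over 45037 probe sets), where 0.0888% of all probe sets did. At an unadjusted p under 0.05 there were 2 members higher and 0 lower (2.84% and 3.43% of all probe sets), and after adjustment 0 were called either by the methods' t-test or by a local pooled error (LPE) test. Before it, 1 member was under 0.05 by LPE (5.76% of all probe sets) and 7 by the methods' t-test (5.92%). The median difference was 0.04 log2 units, against 0.04 over the brightest probe sets of all genes and 0.01 over all probe sets, and 44 members differed by less than 0.5. The arrays of the groups did not overlap in 19 members higher in diabetic spleen (21.6% of all probe sets) and in 8 lower (19.4%), so the share of higher members lay above that background and the share of lower ones near it. Over the brightest probe sets of all genes, 4633 of 18193 were higher and 3187 lower without overlap. Those backgrounds include dim probe sets, and whether equally bright ones separated as often was not tested. The large subunit had a median difference of 0.06 and the small subunit of 0.03.

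TSA-treated spleen was compared with non-diabetic spleen for the state after treatment. Again 0 of 46 members passed limma's test, where 0.0688% of all probe sets did. At an unadjusted p under 0.05 there were 2 higher and 0 lower (6.39% and 8.34% of all probe sets), with 0 called by LPE and 0 by the methods' t-test after adjustment. Before it, 3 members were under 0.05 by LPE (9.81% of all probe sets) and 1 by the methods' t-test (11.6%). The median difference was -0.07, against 0.07 over the brightest probe sets of all genes and 0.05 over all probe sets, and 9 members differed by over 0.5 in size (22% of all probe sets). Groups did not overlap in 9 members higher and 10 lower (26.3% and 21.5% of all probe sets). Without TSA-treated replicate 2 the median was 0.03.

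Diabetic spleen was set against TSA-treated spleen with the same arrays. Here too 0 of 46 members passed limma's test (0.0266% of all probe sets), 0 had an unadjusted p under 0.05 in either direction (2.06% higher and 2.21% lower over all probe sets), and LPE and the methods' t-test called 0 after adjustment, with 3 (1.73% of all probe sets) and 1 (3.02%) under 0.05 before it. The median difference was 0.13, against -0.02 over the brightest probe sets of all genes and over all probe sets, and 0.0029 without TSA-treated replicate 2. Groups did not overlap in 9 members higher in diabetic spleen and 4 lower (11.4% and 16.2% of all probe sets). A moderated F test over the 3 groups called 0 members (0.0933% of all probe sets), with 2 at an unadjusted p under 0.05 (9.53% of all probe sets), and an analysis of variance called 0 after adjustment. The comparisons share their arrays pairwise, so they are not separate evidence.

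**Figure D2:**
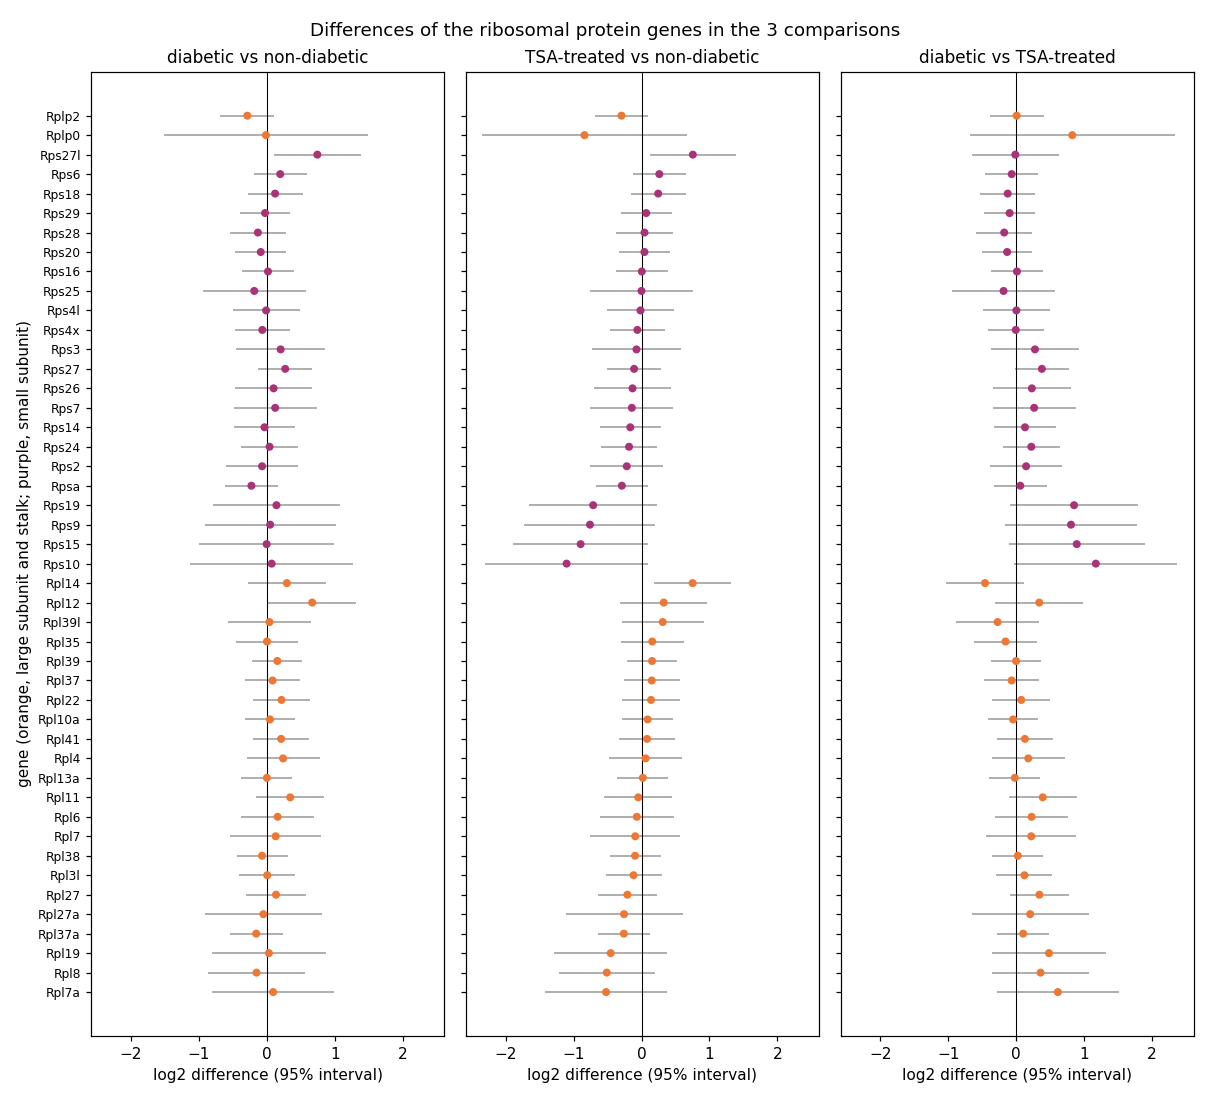
Log2 difference with its 95% interval from limma for each of the 46 genes (y axis) in the 3 comparisons (panels), the large subunit and stalk in orange and the small subunit in purple. Most points lie close to 0; Rps27l and Rpl12 lie highest in diabetic and Rps27l and Rpl14 in TSA-treated against non-diabetic spleen, and Rps10, Rps15, Rplp0, Rps9 and Rps19 lie lowest in TSA-treated spleen with wide intervals.

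Among large subunit genes, Rpl12 in diabetic and Rpl14 in TSA-treated spleen had the largest positive differences from non-diabetic spleen. Rpl12, a protein at the base of the stalk (chr2:32961712-32964045), read 6.86 and 6.73 in non-diabetic, 7.18 and 7.75 in diabetic and 7.35 and 6.89 in TSA-treated spleen. Both diabetic arrays lay above both non-diabetic arrays, a difference of 0.67 ± 0.26 (SE) with adjusted p = 0.80 by limma. TSA-treated spleen differed from non-diabetic spleen by 0.33 ± 0.26 (adjusted p = 0.63 by limma), and by 0.56 without TSA-treated replicate 2. On a brighter probe set that also names other genes, Rpl12 differed by 0.07 and 0.08 in these comparisons.

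Rpl14 (chr9:120571517-120574653) read 5.84 and 5.65 in non-diabetic, 5.88 and 6.20 in diabetic and 6.25 and 6.75 in TSA-treated spleen. The TSA-treated arrays were the highest of the 6, and the difference from non-diabetic spleen was 0.75 ± 0.23 (adjusted p = 0.24 by limma). Without TSA-treated replicate 2 that difference was 0.50. A brighter probe set that names Rpl14 with another gene ran the other way, with differences of -0.49 in TSA-treated and -0.37 in diabetic spleen. The direction for Rpl14 therefore depended on the probe set. Which of them follows the main transcript was not tested.

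Several large subunit genes, Rpl13a, Rpl38 and Rpl10a, varied little on the probe sets used. Rpl13a, often used as a reference gene, read 13.55 and 13.54, then 13.53 and 13.57, then 13.50 and 13.63 in non-diabetic, diabetic and TSA-treated spleen. Its difference in TSA-treated spleen was 0.02, with a 95% interval from -0.36 to 0.40, and -0.05 without TSA-treated replicate 2. The other 3 probe sets of Rpl13a differed from it and from each other, by -0.38, 0.24 and 0.64 in TSA-treated spleen. Rpl38, known for its part in translating Hox mRNAs in embryos, stayed between 13.68 and 13.84 on the 6 arrays, with overlapping diabetic and non-diabetic arrays. Rpl22, which T cell development requires, varied more, between 13.25 and 13.66 on the probe set used. Its range without TSA-treated replicate 2 was 0.41, against a median of 0.26 over the members. Its probe sets with means of 10.88 and 6.83 differed by 0.23 and -1.12 in TSA-treated spleen. Rpl10a stayed between 12.96 and 13.12. The 95% intervals for Rpl38 (-0.45 to 0.30 in diabetic and -0.47 to 0.28 in TSA-treated spleen) still allow a moderate change.

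Rpl11 binds the rRNA of the large subunit together with Rpl5 and, when free, inhibits Mdm2. Rpl11 read 11.70 and 11.79 in non-diabetic, 12.04 and 12.14 in diabetic and 11.93 and 11.46 in TSA-treated spleen. The diabetic arrays were the highest of the 6, but the difference of 0.34 ± 0.20 did not pass the test (adjusted p = 0.88 by limma). Rpl5, on a probe set shared with other genes, differed by 0.16 in diabetic spleen.

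On the negative side of the diabetic comparison, Rpl37a (-0.16) and Rpl8 (-0.15) were the lowest proteins of the large subunit body. Rpl37a read 13.43 and 13.52 in non-diabetic, 13.29 and 13.35 in diabetic and 13.14 and 13.30 in TSA-treated spleen. Its non-diabetic arrays were the highest of the 6, by less than 0.5.

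The stalk was represented by Rplp0, which anchors it, and Rplp2, part of its flexible arms. Rplp2 read 12.47 and 12.40 in non-diabetic, 12.14 and 12.15 in diabetic and 12.03 and 12.25 in TSA-treated spleen. Non-diabetic arrays were highest, and the difference in diabetic spleen, -0.29 ± 0.16, was the most negative of the 46 members (adjusted p = 0.87 by limma). Rplp0 (chr5:115559467-115563729), another common reference gene, read 12.83 and 12.66, then 12.72 and 12.74, then 12.93 and 10.88. A single array, TSA-treated replicate 2, set its mean: the difference from non-diabetic spleen was -0.84 ± 0.61 with that array (adjusted p = 0.59 by limma) and 0.18 without it. Rplp1, on a probe set shared with other genes, was also 0.94 lower on replicate 2 than on replicate 1.

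In the small subunit, Rps27l had the largest positive difference of all members in both comparisons with non-diabetic spleen. Rps27l, a paralog of Rps27 and a known p53 target (chr9:66944624-66949522), read 9.83 and 9.17 in non-diabetic, 10.11 and 10.37 in diabetic and 10.35 and 10.15 in TSA-treated spleen. The 4 diabetic and TSA-treated arrays all lay above the 2 non-diabetic ones, which were 0.66 apart. The differences were 0.74 ± 0.26 in diabetic (adjusted p = 0.78 by limma) and 0.76 ± 0.26 in TSA-treated spleen (adjusted p = 0.27 by limma), and diabetic and TSA-treated spleen differed by -0.01, with an interval from -0.65 to 0.63. Its other 2 probe sets gave 0.66 and 0.73 in diabetic and 0.70 and 0.73 in TSA-treated spleen, so its 3 probe sets ran alike. On TSA-treated replicate 2 it was 0.20 below replicate 1, and without replicate 2 the difference from non-diabetic spleen was 0.86.

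Rps27 itself read 4.11 and 3.92 in non-diabetic, 4.36 and 4.21 in diabetic and 3.93 and 3.88 in TSA-treated spleen on its own dim probe set. The diabetic arrays were the highest, 0.27 above non-diabetic spleen, but the shared bright probe set differed by -0.09. The direction again depended on the probe set.

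Rps6, the protein phosphorylated by S6 kinases downstream of mTOR, read 8.24 and 8.13 in non-diabetic, 8.30 and 8.46 in diabetic and 8.40 and 8.49 in TSA-treated spleen. All 4 diabetic and TSA-treated arrays lay above the non-diabetic ones, by 0.20 ± 0.16 in diabetic (adjusted p = 0.96 by limma) and 0.26 ± 0.16 in TSA-treated spleen (adjusted p = 0.52 by limma). A brighter probe set that names Rps6 with other genes differed by only 0.03 and 0.04, with overlapping groups. Rps18, a frequent reference gene, differed by 0.12 and 0.24. Rpsa, also known as the laminin receptor precursor, read 13.96 and 13.98, then 13.78 and 13.71, then 13.59 and 13.77. Here the non-diabetic arrays were the highest, with a difference of -0.23 ± 0.16 in diabetic spleen (adjusted p = 0.91 by limma).

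The Rps25 probe set, on a gene known for its role in initiation on viral internal ribosome entry sites, differed by -0.19 in both diabetic comparisons. Its TSA-treated arrays read 8.49 and 9.41, the lowest and the highest of the 6. Rps28 read 13.54 and 13.47 in diabetic and 13.54 and 13.81 in TSA-treated spleen, and differed between them by -0.18. For Rpl35 the values were 13.52 and 13.58 against 13.51 and 13.90. In these genes TSA-treated replicate 2 was the high array. A brighter probe set that names Rps25 with other genes ran the other way, at 12.14 and 12.43 in non-diabetic, 12.78 and 12.69 in diabetic and 12.68 and 12.54 in TSA-treated spleen, with differences of 0.44 in diabetic against non-diabetic and 0.12 in diabetic against TSA-treated spleen. The direction for Rps25 thus depended on the probe set.

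Several members are mutated in Diamond-Blackfan anemia, an inherited failure of red cell production, and the NOD spleen is a site of red cell production. Rps19 read 11.08 and 11.08 in non-diabetic, 11.41 and 11.03 in diabetic and 10.95 and 9.79 in TSA-treated spleen. Rps24 read 13.08 and 13.03, then 13.10 and 13.10, then 13.02 and 12.73. Rps26 read 12.74 and 12.83, then 12.81 and 12.95, then 12.95 and 12.35. All 3 were within 0.5 on 5 arrays and lowest on TSA-treated replicate 2. They are only part of the genes of that disease. Other members, such as Rps28 (13.81) and Rps29 (14.04), were highest on that array. Of the 5 erythroid genes measured, Klf1 (0.95), Slc4a1 (0.54) and Hba-a1 (0.47) had positive and Alas2 (-1.11) and Epor (-0.12) negative differences in TSA-treated spleen, and none passed limma's test. The negative signs rested on TSA-treated replicate 2. Without it all 5 differences were positive: Klf1 1.39, Epor 0.74, Slc4a1 0.58, Alas2 0.29 and Hba-a1 0.15. Rpl35a, on a shared probe set, differed by 0.04 in diabetic spleen and by -0.03 after TSA.

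**Figure D3:**
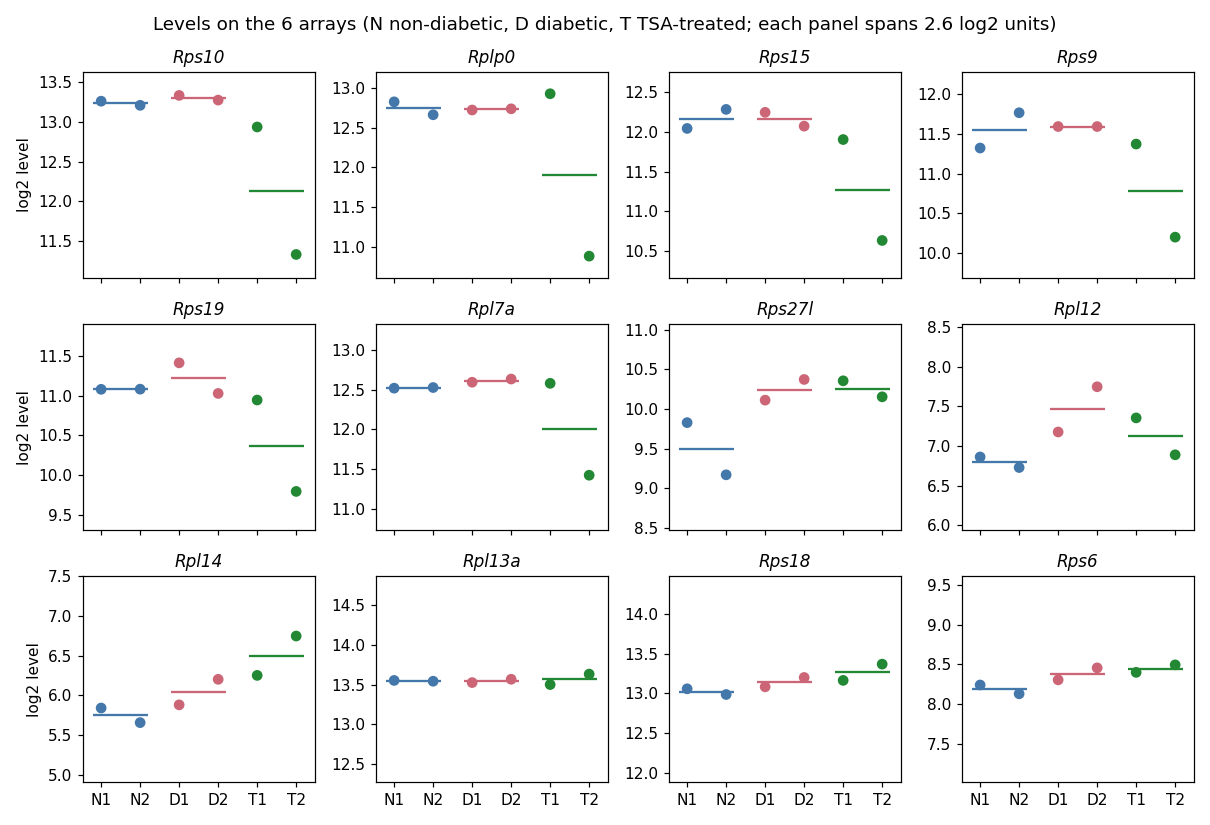
Log2 level (y axis, every panel spanning the same number of units) of 12 genes on the 6 arrays (x axis; N non-diabetic, D diabetic, T TSA-treated, with the replicate number), with a line at each group's mean. The top row with Rps19 and Rpl7a shows genes that drop on T2, then come Rps27l, Rpl12 and Rpl14 with their higher values outside N, and Rpl13a, Rps18 and Rps6 are near flat.

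The paralogs other than Rps27l were at the dim end. Rpl3l, a muscle form of Rpl3, read between 2.62 and 2.92 on the 6 arrays. Rpl39l, a testis form of Rpl39, read 3.30 to 3.37 on 5 arrays and 3.98 on TSA-treated replicate 2, and Rps4l, which RefSeq lists as a transcribed pseudogene, read 3.57 to 4.04. All 3 overlapped between groups in the diabetic comparison, and at such brightness a probe set may hold little signal of its transcript. Rps4x, the X-linked gene of the small subunit, read 13.33 to 13.57.

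A subset of members was low on TSA-treated replicate 2. That array was the lowest of the 6 in 22 of 46 members (20.6% of all probe sets) and the highest in 11 (33.9%). It lay over 0.5 below every other array in 8 members (7.24%) and over 1 below replicate 1 in 7 (6.61%). Those shares are over all probe sets, whose median level was 3.89, and dim probe sets have little room to fall. Whether equally bright probe sets fell as often was not tested. Rps10 (chr17:27630415-27635244) read 13.26 and 13.21, then 13.33 and 13.28, then 12.94 and 11.33. Both TSA-treated arrays were the lowest, and the differences were -1.10 ± 0.49 from non-diabetic (adjusted p = 0.38 by limma) and 1.17 ± 0.49 between diabetic and TSA-treated spleen (adjusted p = 0.90 by limma). The interval of the former ran from -2.31 to 0.10, and without replicate 2 the differences were -0.30 and 0.37. For Rps3, at the mRNA entry of the small subunit, the TSA-treated arrays read 13.09 and 12.36, and the difference from non-diabetic spleen was -0.07, and 0.29 without replicate 2.

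Rps15, a small subunit protein near the decoding site, read 12.04 and 12.28, then 12.25 and 12.07, then 11.90 and 10.63. Rps9 read 11.32 and 11.77, then 11.60 and 11.60, then 11.37 and 10.20. Rpl7a, a large subunit protein, read 12.52 and 12.53, then 12.60 and 12.63, then 12.58 and 11.42. In Rpl7a and Rps9, TSA-treated replicate 1 lay within the span of the 4 untreated arrays, and in Rps15 just below it. Rpl8 and Rpl19 had the same shape, with 11.39 and 10.54 and with 13.09 and 12.06 on the TSA-treated arrays. Without replicate 2 the differences from non-diabetic spleen on the probe sets used were -0.26 for Rps15, -0.17 for Rps9, 0.06 for Rpl7a, -0.09 for Rpl8, 0.06 for Rpl19 and -0.14 for Rps19.

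Which TSA-treated array is used decides the calls for these genes. Without replicate 1, limma called 4 members lower in TSA-treated than in non-diabetic spleen, Rps10 (-1.91, adjusted p = 0.019), Rplp0 (-1.86, adjusted p = 0.020), Rps15 (-1.53, adjusted p = 0.032) and Rpl7a (-1.10, adjusted p = 0.039), where 3.24% of all probe sets were called lower. The same 4 were called higher in diabetic than in TSA-treated spleen (2.04%), and the F test called Rps10 and Rplp0 (1.3%). This fit holds 1 TSA-treated array, which is assumed to vary like the other groups. Its shares are again over all probe sets, dim ones included. Without replicate 2, limma called 0 members in these comparisons, and Rplp0 was 0.18 above non-diabetic spleen. The gap between the 3′ and 5′ probe sets of actin and the B cell level moved with this array, and their part in these values was not tested.

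Probe sets of the same gene did not agree on that array. Rps10 had 6 probe sets of its own, and replicate 2 was below replicate 1 on each, by 0.11 on the least and 2.59 on the most affected. Rps24 ranged from -1.05 to 1.19 over 6 probe sets, and its only rise was on the dimmest of them (mean level 4.70). Rpl13a ranged from -0.94 to 0.14 over 4. For Rps15, the probe set used gave -1.27 and the other -0.15. That other probe set read 12.31 and 12.17 in non-diabetic, 12.07 and 11.73 in diabetic and 11.49 and 11.34 in TSA-treated spleen. Both TSA-treated arrays were thus its lowest, with a difference of -0.83 from non-diabetic spleen (adjusted p = 0.16 by limma). In Rpl7 all 3 probe sets were lower on replicate 2 than on replicate 1, by 0.77 to 1.11. Over the 100 probe sets of the members, those above the overall median with the suffix _a_at, whose probes match several transcripts of a gene, had a median of -0.48 (22 of 25 below 0), those with _x_at, whose probes can also match other genes, -0.11 (21 of 38), and those with plain _at -0.06 (12 of 21). The same medians over all bright probe sets were -0.27, 0.14 and -0.12. Only 3 such member probe sets had the suffix _s_at, that used for Rps9 among them. Their median was -1.17 (3 of 3 below 0), against -0.16 over all bright probe sets with that suffix.

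**Figure D4:**
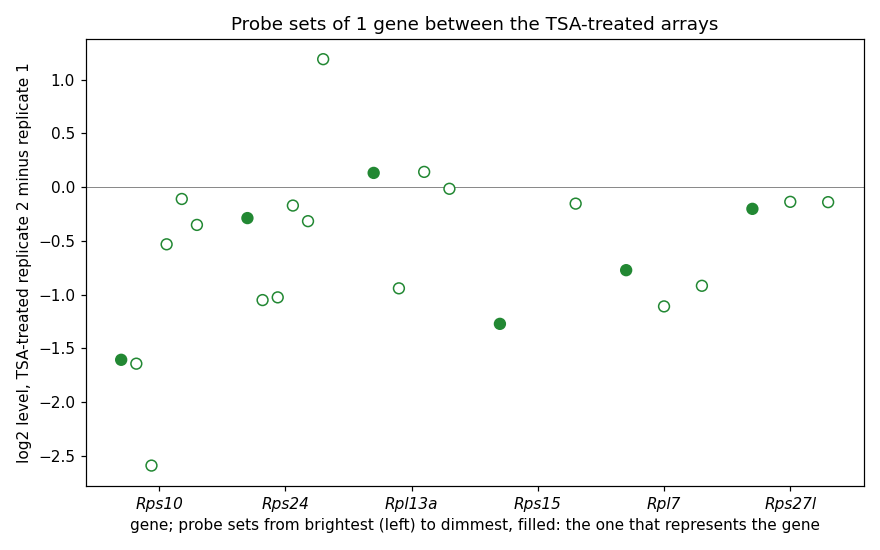
Log2 level on TSA-treated replicate 2 minus replicate 1 (y axis) for each probe set of 6 genes (x axis), from the brightest to the dimmest within a gene; filled points mark the probe set that represents the gene. Rps10 spreads from -2.59 to -0.11, whereas the 3 probe sets of Rps27l lie close together.

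Members with and without a pyrimidine run near the annotated start had close median differences in both comparisons with non-diabetic spleen. Among bright members with a promoter window, the 20 with a run had a median difference of -0.08 in TSA-treated spleen and the 17 without it of -0.07. In diabetic spleen both medians were 0.08. Between the TSA-treated arrays the medians were -0.09 and -0.27, with ranges of -1.61 to 0.68 and -2.05 to 0.92 that overlap over most of their length. The windows of Rps10 and Rpl7a above hold long runs and those of Rplp0 and Rps15 hold none. These 4 were shown because they varied most between the TSA-treated arrays, so they cannot show whether a run goes with the drop. That was not tested.

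Genes that make, regulate or work with the ribosome were read from lists of their own. Limma called 0 genes in each list and comparison given here. Of the 2 ribosomal proteins made as fusions with a ubiquitin-like protein, Fau was measured, and it read 12.38 and 12.64, then 12.54 and 12.15, then 11.96 and 10.81. Its TSA-treated arrays were the lowest, with a difference of -1.13 from non-diabetic spleen (adjusted p = 0.27 by limma), and -0.55 without replicate 2. Among 7 elongation factors the median difference was 0.02 in diabetic and -0.05 in TSA-treated spleen (0.15 without replicate 2). Eef1a1, which brings the aminoacyl-tRNA, differed by 0.02 and -0.05, and Eif5a, which eases stalled peptide bonds, by -0.36 and -1.74, with 8.69 on TSA-treated replicate 2 and 11.76 on replicate 1. Without replicate 2 the latter was -0.21. In 7 other TOP genes the medians were 0.09 and 0.12 (0.21 without replicate 2), and Tpt1, the brightest, differed by 0.09 and 0.12.

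In the 7 other TOP genes Btf3 had the largest difference, 0.49 in TSA-treated spleen (adjusted p = 0.38 by limma). Initiation factors (29 measured) had medians of 0.08 and -0.0024, ribosome biogenesis genes (39) of 0.10 and -0.01, and RNA polymerase I genes (13), which transcribe the rRNA, of 0.05 and 0.05. Without TSA-treated replicate 2 the medians in TSA-treated spleen were 0.28, 0.11 and -0.01 in that order, so those values rest on 1 array. Unadjusted p-values under 0.05 in TSA-treated spleen were found in 4 initiation factors that were higher and 1 that was lower, and in 3 biogenesis genes higher and 3 lower (6.39% higher and 8.34% lower over all probe sets). Eif4g2, the brightest initiation factor, differed by 0.11 in TSA-treated spleen, and Eif3d, the one with the largest difference, by -1.02, with 9.11 on replicate 1 and 7.13 on replicate 2, and by -0.03 without the latter. Among polymerase I genes Polr1d, the brightest, differed by 0.09 and 0.30, and Taf1c by -0.69 and -0.42. Dkc1, the pseudouridine synthase of rRNA, differed by 0.84 in TSA-treated spleen (adjusted p = 0.15 by limma) with both TSA-treated arrays above the other 4, and by 0.68 without replicate 2. Nop10, the brightest of the biogenesis list, differed by 0.09 and -0.01. Bop1, a factor for the large subunit, differed by -1.73 (adjusted p = 0.31 by limma) and read 6.01 on TSA-treated replicate 1 and 3.89 on replicate 2, with a difference of -0.67 without the latter. Of 15 genes of Myc and mTOR control, the median was 0.02 in diabetic and 0.23 in TSA-treated spleen (0.27 without replicate 2). Myc read 7.03 and 6.88, then 7.34 and 7.57, then 7.68 and 7.43, so that both diabetic and both TSA-treated arrays lay above the non-diabetic ones, by 0.50 and 0.60 (adjusted p = 0.79 and 0.23 by limma). Rheb, the activator of mTOR and the brightest of the list, differed by 0.52 and 0.63 (adjusted p = 0.80 and 0.29 by limma). Akt1, an upstream kinase, differed by -1.25 in TSA-treated spleen (adjusted p = 0.27 by limma), with 5.85 on replicate 1 and 4.54 on replicate 2, and by -0.59 without the latter. The 6 Rps6k kinases had medians of 0.02 and 0.19 (0.33 without replicate 2), and Rps6ka3, the brightest, differed by 0.55 and 0.40.

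The mitochondrial ribosome is built from a separate set of nuclear genes. Its 76 measured genes had a median difference of 0.27 in diabetic spleen, against 0.04 for the cytoplasmic set, 0.04 over the brightest probe sets of all genes and 0.01 over all probe sets. Groups did not overlap in 44 of the 76 that were higher and 2 that were lower in diabetic spleen (21.6% and 19.4% of all probe sets), and 9 had an unadjusted p under 0.05, all higher (2.84%). In TSA-treated spleen the median was 0.17, and in the comparison of diabetic with TSA-treated spleen 0.10. Both depended on TSA-treated replicate 2: without it they were 0.37 and -0.06, so the first was larger and the second changed sign. Mrpl50, with the largest difference in diabetic spleen, was 0.93 higher (adjusted p = 0.78 by limma), and Mrpl39, the brightest, differed by -0.03. Mrpl4 differed by -1.13 in TSA-treated spleen, with 6.60 on replicate 1 and 5.15 on replicate 2, and by -0.40 without the latter. Cell cycle genes (4 measured) differed by a median of 0.80 in diabetic and 0.77 in TSA-treated spleen (1.25 without replicate 2), and their part in the mitochondrial values was not tested. The difference between the mitochondrial and the cytoplasmic set was not tested either.

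**Figure D5:**
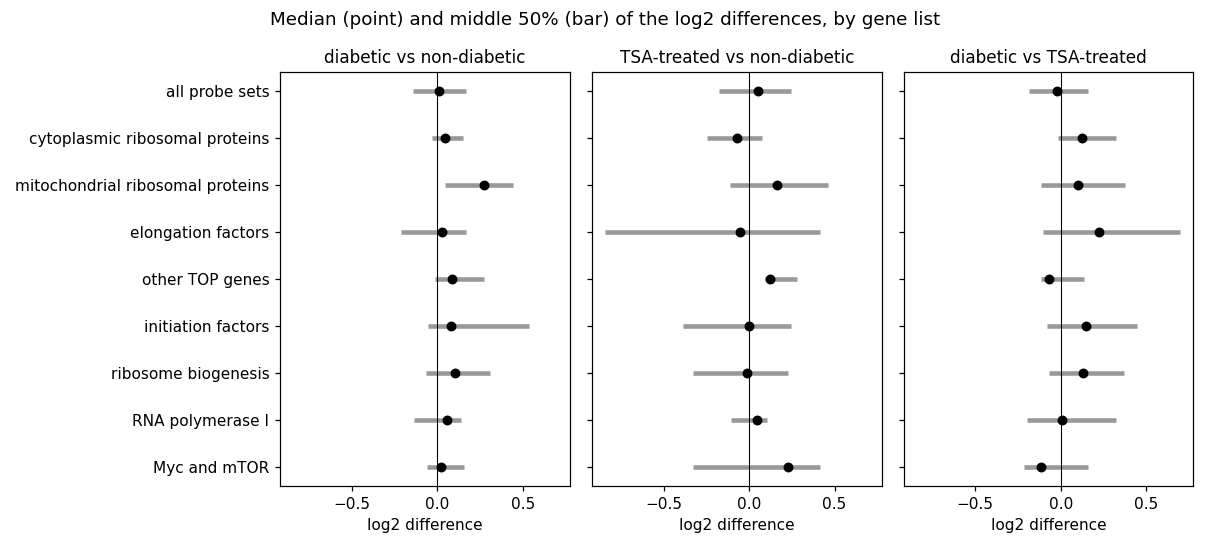
Median (point) and middle 50% (bar) of the log2 differences (x axis) over all probe sets, the cytoplasmic ribosomal protein genes and 7 related lists (y axis) in the 3 comparisons (panels). The mitochondrial set lies to the right in diabetic against non-diabetic spleen at 0.27, while the cytoplasmic set stays at 0.04.

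The RNA part of the small subunit was seen only through control probe sets for 18S rRNA, which were in no test. The probe set from the middle of the molecule read 9.30 and 9.04 on the non-diabetic, 8.74 and 3.12 on the diabetic and 3.31 and 5.80 on the TSA-treated arrays. The duplicates of the diabetic pool thus differed by more than any 2 group means, and these values describe the labeled samples and not the ribosome content of the spleen. The mean levels of T cell genes (4 measured) were 8.46 and 8.53, then 8.23 and 8.59, then 8.32 and 7.66. Plasma cell genes (5) had means of 6.99 and 6.96, then 6.95 and 7.08, then 6.44 and 5.93, erythroid genes (5) of 8.68 and 8.63, then 9.03 and 8.86, then 9.29 and 8.32, and neutrophil genes (5) of 9.71 and 9.72, then 10.20 and 10.15, then 9.48 and 8.27. All these lists except the cell cycle and pancreas genes had their lowest mean on TSA-treated replicate 2, as did a large share of the ribosomal protein genes, and their part in the ribosomal protein values was not tested.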

How the data were processed

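Spleen RNA of 3 groups of NOD mice (1 pool a group, 2 arrays a pool) had been hybridized to Affymetrix whole-genome mouse arrays. The authors deposited log2 levels normalized by RMA, per the labels, and these log2 values were used as given. Depth has no counterpart here, and 2 arrays a group limit the precision. Of 45101 probe sets, 64 controls were left out. The platform annotation gave 1 gene to 34945 of the rest, several to 932 and none to 9160. Group means were compared in 1 fit with limma 3.58.1 in R 4.3.3 (lmFit, eBayes, 3 residual degrees of freedom), with Benjamini-Hochberg adjustment over 45037 probe sets and a threshold of 0.05. The fit was tested on simulated data. Summaries used Python 3.11.15 and pandas 2.3.3.

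The members and lists were chosen with earlier results of these data known. Named genes were the 5 largest differences each way in each comparison, the 4 brightest and 4 dimmest members, fixed genes (stalk, anemia genes, reference genes, paralogs) and, of each list, the brightest gene and the one with the largest change. Rpl7, Rpl7a, Rpl10a, Rpl19, Dkc1, Myc and Mrpl50 were added after their values were seen. Alternatives were other tests (LPE rewritten from its description, the methods' t-test, analysis of variance), other scalings and filters, other probe sets, a replicate block and leaving out each array, for the related lists replicate 2 of the TSA-treated pool alone, a choice made after seeing the data.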

Additional observations from a re-analysis of the deposited data

How the results depend on the processing

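Of 70 recomputed counts of called members, 67 stayed at 0, and 3 did not: without TSA-treated replicate 1 limma called 4 members in TSA-treated against non-diabetic spleen, 4 in diabetic against TSA-treated spleen and 2 in the F test (0 to 4, 0 to 4 and 0 to 2 over all arrays left out in turn). Of 33 recomputed medians, 30 moved by less than the spread between duplicates (0.06). The median in TSA-treated against non-diabetic spleen ran from -0.12 to 0.035 and that in diabetic against TSA-treated spleen from 0.0029 to 0.13 with arrays left out, the far values being those without TSA-treated replicate 2, and with plain _at probe sets alone the former was -0.00087. Of 469 differences of single genes, 456 kept their direction and side of the threshold and 7 reversed, 6 of them without TSA-treated replicate 2. With arrays left out, the difference in TSA-treated against non-diabetic spleen ran from -0.028 to 0.65 for Rpl39l and from -1.86 to 0.18 for Rplp0, and that in diabetic against TSA-treated spleen from -0.20 to 1.85 for Rplp0, from -0.61 to 0.065 for Rpl39l, from -0.64 to 0.27 for Rps25 and from -0.35 to 0.039 for Rpl35, the end across 0 being that without replicate 2 and the other that without replicate 1. Rpl35 was also 0.11 in that comparison with plain _at probe sets. The cause was not tested. A replicate block called 0 members in each comparison (33, 30 and 0 of all probe sets, against 40, 31 and 12 without it), and replicate numbers did not deviate together (r = -0.34, -0.04 and -0.11 for the 3 pairs of groups). With the diabetic numbers crossed the block called 0 too, a setting chosen after seeing the data, as was the use of any probe set naming a ribosomal protein gene, with 0 calls. Pools hide the spread between mice, and 2 arrays a group leave intervals with a median width of 0.48 on either side.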
